A study of Mus musculus with 30 samples.

Results

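The genes described here encode the proteins of the cytosolic ribosome. They were taken from the mouse annotation (GENCODE vM21) as the protein-coding genes whose symbol is *Rpl* or *Rps* followed by a digit, together with *Rpsa*, *Rplp0*, *Rplp1* and *Rplp2* and without the *Rps6k* kinases. The rule found 92 of the 55487 genes of the count files. Of these, 46 encode canonical proteins of the large subunit and 31 canonical proteins of the small subunit. A further 8 are paralogs, namely *Rpl3l*, *Rpl7l1*, *Rpl10l*, *Rpl22l1*, *Rpl36al*, *Rpl39l*, *Rps27l* and *Rps27rt*. The other 7 matched by symbol alone: 6 are annotated as coding but carry the name of a pseudogene, and *Rps19bp1* encodes a binding partner of a ribosomal protein rather than a subunit.

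Ribosomal proteins assemble with ribosomal RNA in the nucleolus, in near equal numbers per ribosome, and the paired subunits then translate mRNA in the cytoplasm. Their mRNAs are short and abundant, and most begin with a 5′ terminal oligopyrimidine tract, a cytosine followed by a run of pyrimidines, through which mTORC1 and LARP1 control their translation. In the cleavage-stage embryo, ribosomes inherited from the oocyte are gradually replaced by ribosomes made from embryonic transcripts.

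The study asked which transcripts change when the ribonuclease DIS3, a catalytic subunit of the nuclear RNA exosome, is missing from the preimplantation embryo. Poly(A) RNA of each of 23 embryos was amplified and sequenced on its own, with ERCC spike-in RNA added to it. Genotypes came from genomic DNA of the same embryo. The E2.5 groups hold 6 wild-type (WT), 2 het and 4 homozygous null embryos, those of E2.75 hold 3, 5 and 3. All embryos, the WT ones included, had het parents carrying a null allele made with CRISPR-Cas9, and no agent distinguished the groups. A second experiment mapped POU6F1-mCherry by ChIP-seq in transfected mouse embryonic stem cells (mESCs), with 2 anti-mCherry replicates. The labels give no litter, collection date or sequencing run, so stage and collection cannot be told apart.

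The targeted gene was read first. *Dis3* stood at 147, 134, 109, 63.6, 40.2 and 18.0 CPM (gene counts scaled to library size, after TMM normalization) in the WT embryos at E2.5, at 58.2 and 59.2 in the het embryos and at 16, 2.55, 0 and 14.3 in the null embryos. At E2.75 it stood at 112, 64.4 and 107 in WT embryos, from 30.4 to 49.6 in het embryos and at 12.8, 21.5 and 10.1 in null embryos. The lowest WT value, that of the library labelled E2.5 WT replicate 6, was no higher than the highest null embryo, so results that involve WT embryos at E2.5 are also given without it where it moved them. Between 1690192 and 14015980 counts fell on genes per library. All 11 embryo markers were detected and *Pou5f1* ranged from 267 to 1576 CPM, whereas *Sox2* had a median of 0.104 CPM and *Cdx2* was at 0 in at least 1 embryo. The 7 cumulus markers each had a median of 0, with *Ptx3* and *Inha* at 0 in every embryo and a summed level of at most 18.9 CPM. The summed blood markers reached at most 6.21 CPM, and the summed oocyte markers 8.13 to 97.4 CPM.

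The start sites of some of these genes are shown because the members are grouped by the pyrimidine run at their 5′ end. RefSeq promoter sequences of GRCm38.p6 were matched for 66 of the 92 genes. Each run covers the 15 bases before and the 15 bases from the annotated start on the gene's strand. Capitals mark the run, a C followed by at least 4 pyrimidines, that begins within 10 bases of the start and nearest to it, and a sequence without capitals holds none.
Rpl38: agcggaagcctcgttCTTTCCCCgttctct
Rpl35: cggccccgCCCTTTCCTCTTTCTCTCgaac
Rps21: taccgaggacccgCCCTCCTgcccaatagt
Rpl22l1: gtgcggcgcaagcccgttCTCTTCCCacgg
Rpl39l: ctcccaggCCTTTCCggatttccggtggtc
Rps27l: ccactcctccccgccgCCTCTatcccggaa
Rps19: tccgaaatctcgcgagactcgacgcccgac
Rpl15: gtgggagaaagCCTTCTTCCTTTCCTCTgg
Rpsa: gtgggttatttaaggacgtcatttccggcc
The windows lie at chr11:114668565-114668594 (plus strand) for *Rpl38*, chr2:39005117-39005146 (minus) for *Rpl35*, chr2:180257364-180257393 (plus) for *Rps21* and chr3:28805493-28805522 (plus) for *Rpl22l1*. That of *Rpl39l* lies at chr16:10170213-10170242 (plus), of *Rps27l* at chr9:66946071-66946100 (plus), of *Rps19* at chr7:24884577-24884606 (plus), of *Rpl15* at chr14:18270972-18271001 (minus) and of *Rpsa* at chr9:120127751-120127780 (plus).

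A C exactly at the annotated start with 4 pyrimidines after it was present in 14 of the 66 members (21.2%) and in 3.01% of the 27025 genes of the promoter table, and one within 10 bases of the start in 60.6% and 34.4%. Over 250 bases before to 50 after the start and on both strands, CCGGAAG, a core of ETS-family sites, was found in 39.4% of the members and 9.93% of all genes. AAGATGGCG, a core of YY1 sites, was found in 6.06% and 1.64%, GGGCGG, a core of SP1 sites, in 62.1% and 38.2%, and TATAAA in 10.6% and 15.7%. TAATGAG was found in 0 members and in 3.52% of all genes. The end of CCGGAAG and the start of AAGATGGCG share AAG, so these matches can overlap, and a match describes the letters of the window only. The other 26 members have no entry in the table.

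How much of each gene the counting could see bears on its level. The sources used here do not say how multiply mapping RNA-seq reads were treated, and the line for them was 0 in every count file. Ribosomal protein genes have many processed pseudogenes, and a median of 65.0% of the 50-base words of a member's mRNA occurred elsewhere in the genome. In 62 members the share was 50% or more and in 8 it was under 10%. If such reads were left out, levels of genes with a high share are too low by an unknown amount, and a gene and its copies cannot be told apart where reads were split. Exons of 39 members also overlap those of another gene, in 19 cases on the opposite strand, and the counting ignored strand.

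Among the members, levels per kilobase of mRNA spanned several orders of magnitude. Among the highest medians over all 23 embryos were those of *Rps14* at 3150 CPM per kb, the stalk protein *Rplp1* at 3064 and the paralog *Rps27l* at 2731. The ranges of these genes over the embryos overlapped, so their order does not hold against the spread between embryos. At the low end of the canonical proteins, *Rpl36* stood at 6.28, *Rpl28* at 10.0, *Rpl23a* at 18.2, *Rpl21* at 26.7 and *Rpsa* at 29 CPM per kb. Of the words of *Rpl36* and *Rpl23a*, 98.5% and 94.5% occur elsewhere, whereas *Rpl28*, *Rpl21* and *Rpsa*, at 54.5%, 56.5% and 60.2%, lie below the members' median share.

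The paralogs were not a uniformly minor group. *Rps27l*, a p53 target, stood far above its parent *Rps27* (2731 against 89.6 CPM per kb) and *Rpl39l*, known from the testis, above *Rpl39* (1453 against 458). *Rpl10l*, a retrogene also known from the testis, had 223 CPM per kb against 39.1 for *Rpl10*, and *Rpl36al* had 381 against 128 for *Rpl36a*. The reverse held for *Rpl22l1* against *Rpl22* (61.9 against 838), *Rpl7l1* against *Rpl7* (245 against 660), *Rps27rt* against *Rps27* (10.9 against 89.6) and the muscle-type *Rpl3l* against *Rpl3* (0.357 against 40.4). Of the words of *Rps27*, *Rpl36a* and *Rpl10*, 99.7%, 92.6% and 94.3% occur elsewhere, compared with 26.7% for *Rps27l*, 70.0% for *Rpl36al* and 26.3% for *Rpl10l*, so these pairs may not have been measured on an equal footing. *Rpl39l* and *Rpl3l* have no word elsewhere. Of the members named as pseudogenes, *Rps12-ps3* had no count in any embryo, and the other 5 stayed at or below 4.17 CPM per kb as medians.

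In WT embryos, the members' share of the counts was lower at the later stage. Together they took 2.81% to 5.02% of all gene counts at E2.5 (median 3.34%, n = 6) and 2.15%, 2.24% and 2.28% at E2.75. The 3 older embryos lay below all 6 younger ones. In het embryos the share was 2.49% and 3.33% at E2.5 and 2.31% to 3.86% at E2.75, and in null embryos 3.38% to 3.92% and then 2.43%, 2.86% and 4.21%, so in both of these genotypes the stages overlapped. In a bulk embryo, fewer cells of a type and less RNA per cell cannot be told apart.

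**Figure D1:**
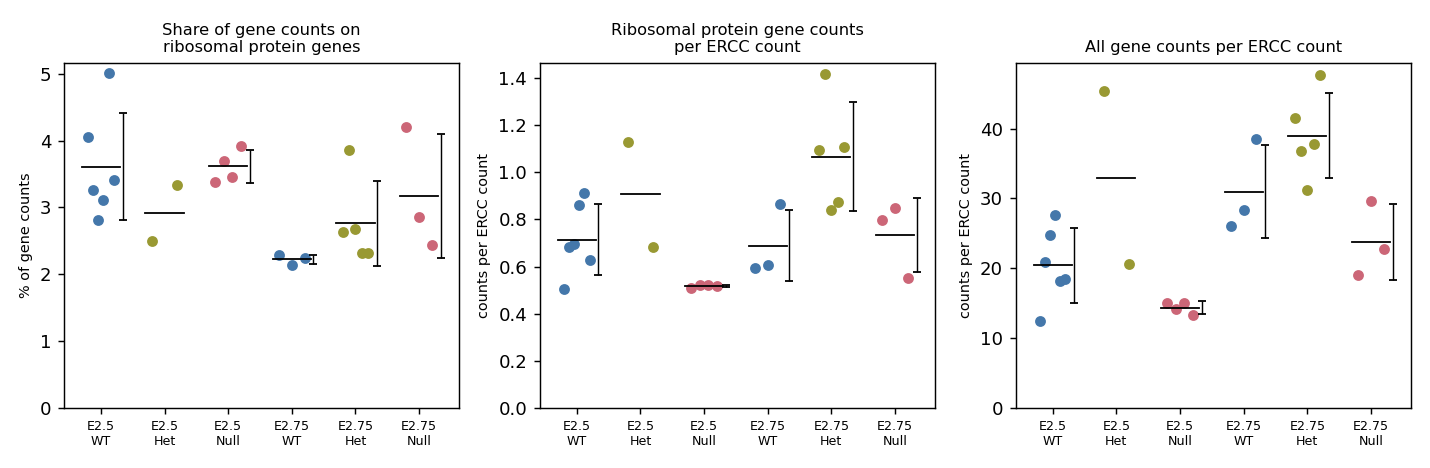
Share of gene counts on the 92 ribosomal protein genes (left, percent), their counts per ERCC spike-in count (middle) and all gene counts per ERCC count (right), by genotype and stage, with 1 point per embryo, a bar at the mean and an error bar of 1 SD for groups of 3 or more. The WT embryos of E2.75 lie between 2.15% and 2.28%, below all 6 of E2.5, whereas per spike-in count the 2 stages overlap.

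Against the spike-in RNA the picture was different. WT embryos held 0.505 to 0.913 member counts per ERCC count at E2.5 and 0.595, 0.607 and 0.864 at E2.75, with overlapping ranges. All gene counts per ERCC count ranged from 12.4 to 27.6 at E2.5 and from 26 to 38.6 at E2.75. The share of the ribosomal protein genes was thus lower at E2.75 while their amount per spike-in was not, and a fall below means a fall relative to the other genes.

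Gene by gene, 41 of the 88 members tested were called lower at E2.75 than at E2.5 in WT embryos (edgeR, adjusted p under 0.1), compared with 4.59% of the 13272 genes tested, and 1 was called higher, compared with 3.19%. Among the members, 84 had a negative log2 fold change and the median was −1.01, compared with 0.03 over all genes tested. Past a log2 fold change of 1 as well, 33 members fell, compared with 3.73% of all genes. In 59 of the 88, all 3 embryos of E2.75 lay below all 6 of E2.5, which held for 8.54% of all genes. When the libraries were scaled to ERCC counts instead, 0 members were lower and 2 higher (14.1% of all genes were called higher), the members' median became −0.06 and that of all genes 0.92, so the members stayed about as far below the median gene. Beside this, the summed oocyte markers were 44.2 to 76.2 CPM at E2.5 and 8.13 to 20.5 CPM at E2.75 in WT embryos, and their part in the result was not tested.

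**Figure D2:**
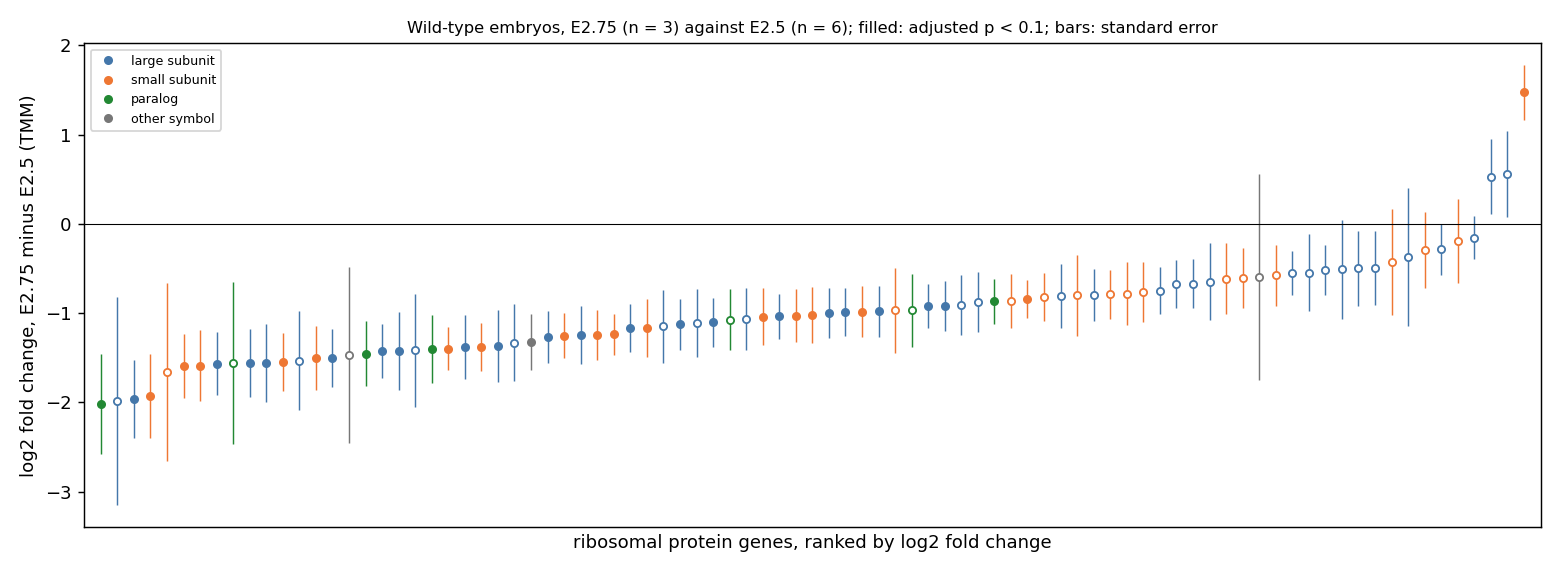
Log2 fold change of E2.75 (n = 3) against E2.5 (n = 6) in WT embryos under TMM normalization (y axis) for the tested members except *Rpl3l*, ranked by value along the x axis and coloured by class, with bars of 1 standard error and filled points where the adjusted p is under 0.1. All but *Rpsa*, *Rpl3* and *Rpl29* lie below 0, with a median over members of −1.01, which becomes −0.06 under ERCC scaling.

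Of the small subunit proteins, 16 of 31 fell, with a median of −0.98. *Rps19*, the protein most often mutated in Diamond-Blackfan anaemia, stood at 784 to 1335 CPM at E2.5 (median 914) and at 375, 362 and 344 CPM at E2.75. No embryo of E2.75 reached the lowest of E2.5, and *Rps19* had the lowest adjusted p of the members (log2 fold change −1.40 ± 0.24 SE, adjusted p = 0.0165). *Rps29* fell from 41.8 to 149 CPM (median 81.5) to 17.8, 24.2 and 22.4 CPM, a log2 fold change of −1.93 ± 0.47 SE (adjusted p = 0.0443). *Rps24* fell from 441 to 1219 CPM (median 495) to 203, 193 and 220 CPM, and *Rps21* from 191 to 631 CPM (median 285) to 109, 137 and 88.0 CPM. The groups did not overlap for any of these 4 genes. *Rps6*, the substrate of the S6 kinases, fell from 50.5 to 68.6 CPM to 25.6, 24.2 and 32.5 CPM (−1.04, adjusted p = 0.0912). *Rps14*, *Rps7*, *Rps25*, *Rps15*, *Rps15a*, *Rps27a* and *Rps16* fell by 1.02 to 1.55 on the log2 scale, and *Rps9* by 0.98.

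The exception was *Rpsa* (ENSMUSG00000032518, chr9:120127689-120132369, plus strand), a small subunit protein also known as the laminin receptor. It stood at 28.7 to 43.7 CPM at E2.5 (median 35.4) and at 108, 62.9 and 109 CPM at E2.75, every older embryo above every younger one. Its log2 fold change was 1.47 ± 0.30 SE (adjusted p = 0.0278), and under ERCC scaling it was 2.4 (adjusted p = 0.0115). Without E2.75 WT replicate 1 or 3 the adjusted p was 0.129 and 0.149. With 60.2% of its words found elsewhere, it may be counted incompletely.

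Of the large subunit proteins, 20 of 46 fell and none rose, with a median of −0.99. *Rpl35*, at the exit of the nascent peptide tunnel, stood at 37.0 to 100 CPM at E2.5 (median 49.3) and at 14.1, 14.4 and 15.1 CPM at E2.75 (log2 fold change −1.97 ± 0.44 SE, adjusted p = 0.0348). Opposite-strand exons of *Arpc5l* and *Wdr38* cover 66.2% of its exon bases, so it is uncertain. *Rpl38*, known for its role in the patterning of the axial skeleton, fell from 169 to 512 CPM (median 257) to 89.7, 93.0 and 89.2 CPM (−1.56, adjusted p = 0.0374). *Rpl23* and *Rpl37* fell by the same amount, and *Rpl35a*, *Rpl36a*, *Rpl26*, *Rpl22*, *Rplp1*, *Rplp2*, *Rpl34*, *Rpl32*, *Rpl7* and *Rpl41* by 1.03 to 1.5. *Rpl14*, *Rpl13*, *Rpl27* and *Rpl7a* fell by 0.92 to 1.00. The members that bind 5S ribosomal RNA and MDM2 were lower too: *Rpl5* fell by 0.92 (adjusted p = 0.0589), and *Rpl11* had −0.87 without a call (adjusted p = 0.182). *Rplp0*, the base of the stalk, had −0.67 (adjusted p = 0.200). *Rpl8* had −0.15, *Rpl3* 0.53 and *Rpl29* 0.56, none of them called.

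Of the paralogs, *Rpl22l1*, *Rpl39l*, *Rps27l* and *Rpl7l1* were called lower. *Rpl22l1* fell from 44.4 to 230 CPM (median 60.6) to 20.2, 24.5 and 16.3 CPM (log2 fold change −2.02 ± 0.56 SE, adjusted p = 0.0639). The 230 CPM are those of E2.5 WT replicate 5, and without this embryo the log2 fold change was −1.44 (adjusted p = 0.0621). *Rpl39l* fell from 775 to 2518 CPM (median 1133) to 564, 486 and 353 CPM, and *Rps27l* from 1363 to 4146 CPM (median 1592) to 767, 896 and 654 CPM. Their log2 fold changes were −1.45 (adjusted p = 0.0478) and −1.40 (adjusted p = 0.0605), and the stages did not overlap for these 3 genes. *Rpl36al* had −1.07 (adjusted p = 0.106), *Rpl10l* −0.97 (0.221) and *Rps27rt* −1.56 (0.402) without a call. *Rps19bp1*, not a subunit, fell by 1.32 (adjusted p = 0.0414), and *Rpl9-ps6* and *Rpl10-ps3* were not called.

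**Figure D3:**
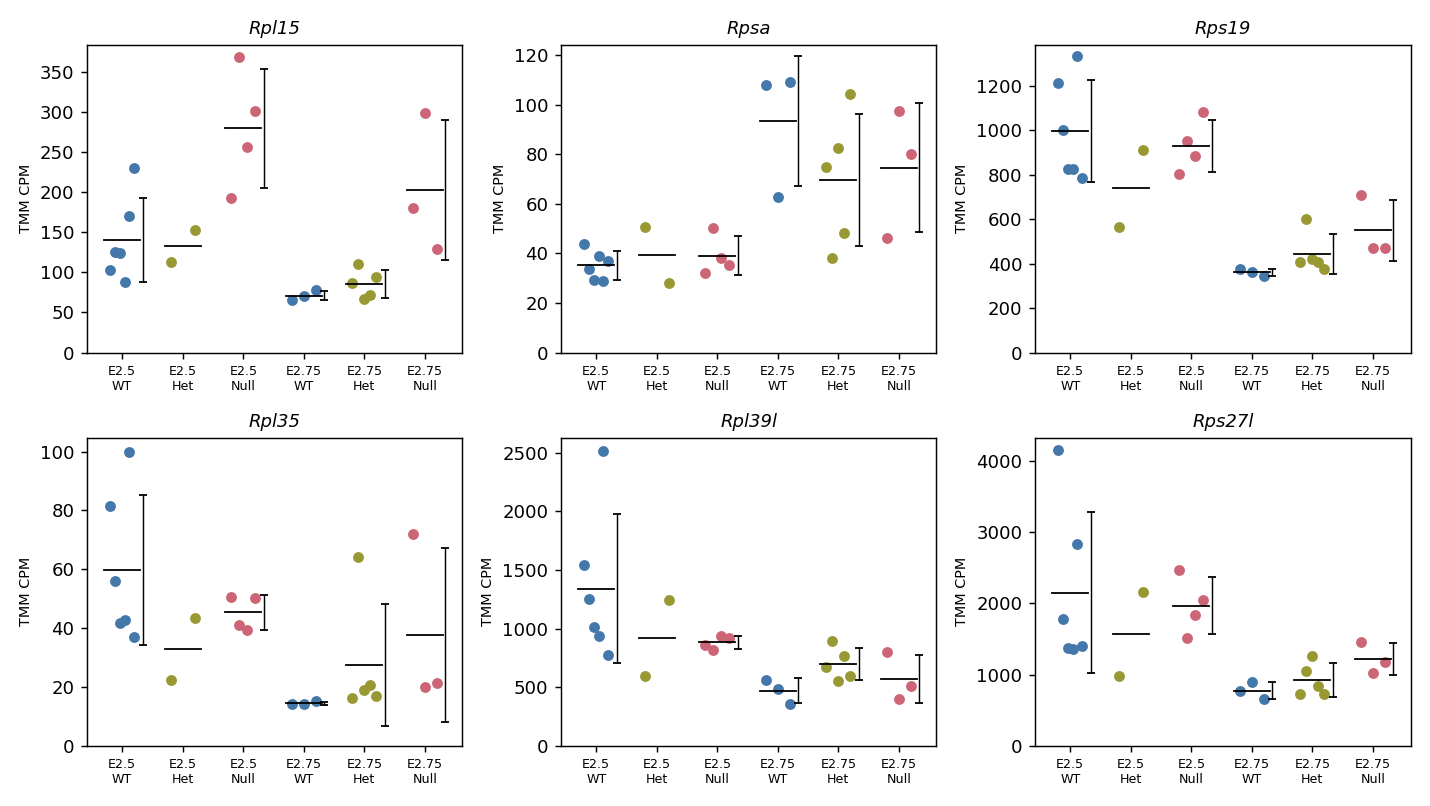
CPM of single members by genotype and stage (y axis), with 1 point per embryo, a bar at the mean and an error bar of 1 SD for groups of 3 or more. In WT embryos *Rps19* is at 784 to 1335 CPM at E2.5 and 344 to 375 CPM at E2.75, whereas *Rpsa* is at 28.7 to 43.7 and 62.9 to 109 CPM. *Rpl15* has its highest group means in the null embryos. At E2.5 a WT embryo at 231 CPM lies above the lowest null embryo at 193 CPM.

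The fall was not limited to genes with many copies in the genome. Of the members with under 50% of their words elsewhere, 17 of 28 were called lower (median −1.13), and of those with 50% or more, 24 of 60 (median −0.99). The other coding genes with exons as short as the members' median or shorter were also lower: 134 of 1087 were called (12.3%), with a median of −0.67. Mitochondrial ribosomal protein genes, which encode the ribosome of the organelle, had 25 of 77 called lower (32.5%, median −0.73) and none higher. Among members with CCGGAAG in the promoter, 13 of 26 fell (median −1.10), and of those without it 18 of 40 (median −0.97). With a C and 4 pyrimidines at the start 8 of 14 fell (median −1.21), and without 23 of 52 (median −0.92).

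Ribosomal proteins that the symbol rule misses were also read. *Fau*, a ubiquitin-like fusion with a small subunit protein, had −0.76 (adjusted p = 0.205), and *Rack1*, a scaffold of the small subunit, had 0.04. Among 21 elongation factors and other mRNAs with a pyrimidine tract, *Eef1b2*, *Npm1*, *Hnrnpa1*, *Nap1l1*, *Naca*, *Eif3e* and *Gas5* fell and *Eif3f* rose, with a list median of −0.40. Of 25 initiation factors, *Eif2s2*, a subunit of the factor that delivers the initiator tRNA, fell by 1.77 (adjusted p = 0.00948), *Eif4a2* and *Eif5* fell, and *Eif3l* rose. In the list on mTORC1 and control of pyrimidine-tract mRNAs, *Larp4* and *Cnbp* fell and *Tsc2* rose, of 18 genes. Of 17 chaperones of ribosomal proteins and factors for stalled ribosomes, *Usp16* fell. In the list of the 5S particle and its p53 branch, *Rpl5*, *Rps27l* and *Bax* fell, of 11 genes.

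The calls depended on the number of embryos. Without E2.75 WT replicate 1, 2 or 3, with 2 embryos left at that stage, 4, 3 and 1 members were called lower, while the median fold change lay between −1.05 and −0.97 and 51 to 54 had an unadjusted p under 0.05, compared with 62 in all embryos. With all 6 groups in one fit, 53 of 90 members were lower in WT at E2.75 (4.67% of all genes) and 31 to 54 with any embryo left out. Without the library labelled E2.5 WT replicate 6, 42 were lower in the fit of the WT embryos (41 with it) and 51 in that of the 6 groups.

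In null embryos, 6 members fell from E2.5 to E2.75 (compared with 2.08% of all genes), with a median of −0.44 over 90 members. Among them were *Rpl19*, *Rpl7a* and *Rpl7*, and the falls were led by *Rpl10* (−1.78, adjusted p = 0.0420) and *Rps27a* (−1.51, adjusted p = 0.0113), which encodes a ubiquitin fusion. For *Rps27a*, the younger null embryos held 254, 305, 302 and 300 CPM and the older ones 88.7, 110 and 108 CPM, without overlap. Under ERCC scaling 0 fell and 6 rose, where 10.6% of all genes were called higher, with a median of 0.52, compared with 0.97 for all genes. E2.75 Null replicate 1 stood apart, with 4.21% of its counts on the members, and without it the median was −0.78 and 37 members had an unadjusted p under 0.05 in place of 18. That library held 1914128 gene counts and E2.75 Null replicate 2 held 1690192, compared with 7051002 in E2.75 Null replicate 3. The part of depth in this was not tested. Without E2.75 Null replicate 2 or 3, 1 member fell. In het embryos 0 members were called, compared with 0.273% of all genes lower, with a median of −0.33 and 9 at an unadjusted p under 0.05, and DESeq2 called 1 lower, as it did 1.64% of all genes.

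The stage difference itself was compared between genotypes as an interaction. For null against WT 0 members were called, as were 0% of all genes, while 78 of 90 were positive, the median was 0.65 (0.08 for all genes) and 21 had an unadjusted p under 0.05. DESeq2 called 2 higher, compared with 1.52% of all genes. Without E2.75 Null replicate 1 the median was 0.34 and 2 members had an unadjusted p under 0.05. For null against het, again 0 members and 0% of all genes were called, with a median of −0.08, 2 members at an unadjusted p under 0.05 and 0 calls by DESeq2, which called 0.445% of all genes. By this test, the number of members called in WT and in null embryos cannot be read as a difference between the genotypes.

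Against genotype, a single member stood out. *Rpl15* (ENSMUSG00000012405, chr14:18267823-18271391, minus strand) encodes a large subunit protein. At E2.5 it was at 87.9 to 231 CPM in WT embryos (median 125), at 113 and 153 CPM in het and at 193, 369, 257 and 301 CPM in null embryos. At E2.75 it was at 65.8, 70.2 and 77.5 CPM in WT, at 66.7 to 110 CPM in het and at 180, 300 and 130 CPM in null embryos. Each null embryo lay above every het embryo of its stage, and at E2.75 above every WT embryo. The highest WT value, 231 CPM, belongs to the library labelled E2.5 WT replicate 6, whose *Dis3* is at the null level. Of the reads assigned to a mouse gene, to none or to several, 22.9% were assigned to none in this library. This share was at most 25.1% in the other WT embryos of E2.5 and 32.3% to 39.5% in the null ones. In this respect the library lay with the WT embryos, and whether its label is right was not tested.

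With the stages merged, *Rpl15* was higher in null than in het embryos (log2 fold change 1.31 ± 0.29 SE, edgeR, adjusted p = 0.00775), the only 1 of 87 members called, compared with 4.1% of all genes called higher. Against WT the value was 1.07 ± 0.26 SE (adjusted p = 0.0181), again the only member, compared with 3.88% of all genes, and without the library labelled E2.5 WT replicate 6 it was 1.26 (adjusted p = 0.00329). At E2.75 it was 1.20 against het (adjusted p = 0.0329, 2.62% of all genes called higher) and 1.46 against WT (adjusted p = 0.0366, 2.24% of all genes called higher). Without E2.75 Null replicate 2 these were 0.82 and 1.07, with adjusted p = 0.189 and 0.138, and without E2.75 WT replicate 1 the second had an adjusted p = 0.106. At E2.5 edgeR called no member. *Rpl15* had 0.96 against WT (adjusted p = 0.128, 0.0652 without the library labelled E2.5 WT replicate 6, and 0.0241 by DESeq2) and 1.01 against het (adjusted p = 0.515).

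Scaled to ERCC counts, *Rpl15* was at 0.24 in null against het (adjusted p = 0.553) and 0.85 against WT (adjusted p = 0.0960). The shortest principal mRNA of the gene has 802 bases, of which 88.6% of the words occur elsewhere, but its longest has 1922 bases and a share of 40.0%. Opposite-strand exons of *Nkiras1* overlap 4.25% of the exon bases. Of the reads that were assigned to a mouse gene, to none or to several, 32.3% to 43.9% were assigned to none in null embryos and 21% to 33.4% in the others. These include reads that run past an exon's end, which the counting mode leaves out, and the part of this in the *Rpl15* counts was not tested.

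Across the members, null against het gave a median of 0.38 (0.02 for all genes), with 80 of 87 positive and 11 higher at an unadjusted p under 0.05. This did not hold under ERCC scaling, where 59 members were lower, compared with 39.8% of all genes, and 0 higher. The members' median was then −0.78 and that of all genes −1.08, so the median member fell less than the median gene. The stages are unevenly filled, with 2 of 7 het and 4 of 7 null embryos at E2.5, and with stage in the fit the median was 0.19. DESeq2 called 6 of 90 members higher, compared with 7.86% of all genes. Null against WT gave a median of 0.00, with 44 positive and 43 negative. At E2.75 alone, null against WT had a median of 0.58 and 22 members higher at an unadjusted p under 0.05, while without E2.75 Null replicate 1 the median was 0.17. Under ERCC scaling it was 0.09, compared with −0.40 for all genes. DESeq2 called 16 of 88 members higher there, compared with 8.51% of all genes. Null against het at E2.75 had a median of 0.21.

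At E2.5, 0 of 89 members were called in null against het, where 0.0126% of all genes were called in either direction, and 4 were higher at an unadjusted p under 0.05, with 2 called higher by DESeq2, compared with 3.33% of all genes. Null against WT at E2.5 also had 0 calls, compared with 1.86% of all genes in either direction, with 1 member higher and 2 lower at an unadjusted p under 0.05 and 1 called in each direction by DESeq2, compared with 5.06% of all genes higher and 3.33% lower. Het against WT with the stages merged had 0 members and 0% of all genes called by edgeR, and 0 members and 0.354% of all genes by DESeq2. There 8 members were lower at an unadjusted p under 0.05 and the median was −0.37, which was −0.05 with stage in the fit and 0.51 under ERCC scaling.

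**Figure D4:**
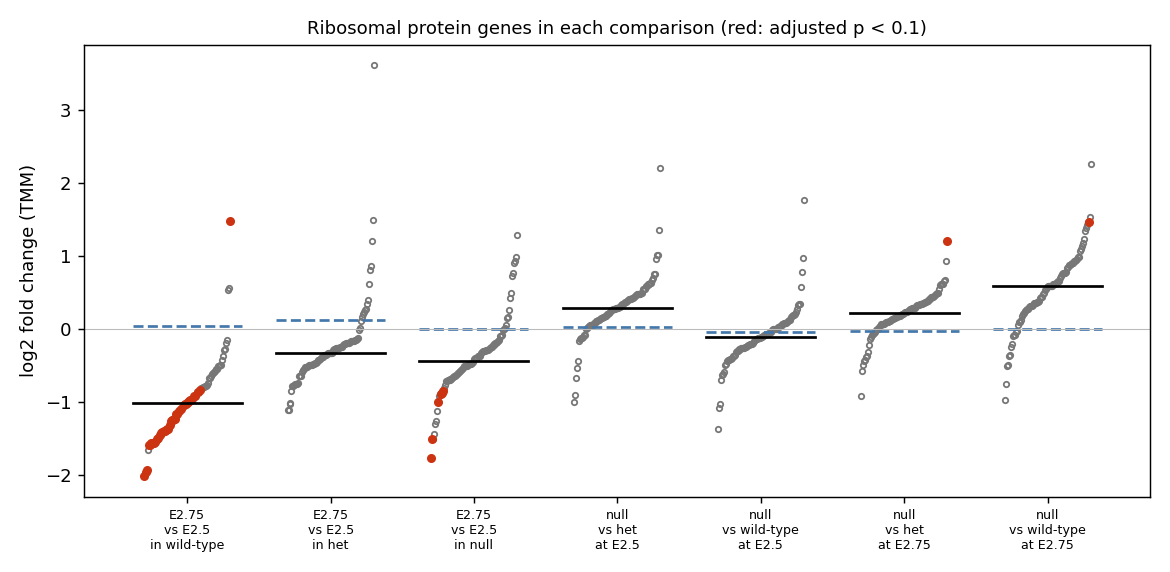
Log2 fold changes of the tested members, except *Rpl3l*, in the stage comparisons of each genotype and in the genotype comparisons at each stage (y axis, TMM normalization), with 1 point per gene, the members' median as a black line, the median of all genes as a dashed line and called genes in red. The members' median is −1.01 between stages in WT (−0.06 under ERCC scaling), −0.33 in het (0.19) and −0.44 in null embryos (0.52). In the genotype comparisons shown, *Rpl15* is the only member called by edgeR, at E2.75 against both het and WT embryos. Under ERCC scaling *Rpl15* is not called at E2.75, while other members are called lower in null against het.

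Few genes of the related lists changed with genotype. *Eif4ebp1*, the translational repressor inhibited by mTORC1, was lower in null than in het embryos (−0.85, adjusted p = 0.0512) and than in WT embryos (−0.86, adjusted p = 0.0371). *Nemf*, which marks nascent chains on stalled large subunits, was higher than in het embryos (0.91, adjusted p = 0.0275), and so was *Cdkn1a*, a p53 target (1.18, adjusted p = 0.0806). At E2.75 *Larp4* was higher in null embryos than in het (1.03) and WT embryos (1.09), and *Eif2s2* (1.61), *Eif5* (0.80) and *Bccip* (1.16) were higher than in WT. *Eif2s2*, *Eif5* and *Larp4* are also among the genes that were lower in WT embryos at E2.75 than at E2.5, and both comparisons use the WT embryos of E2.75.

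The binding data come from another system, mESCs with transfected POU6F1-mCherry. A consensus peak of both replicates over the IgG control lay within 1 kb of a start site for 62 of the 87 members tested in the combined fit, compared with 65.6% of all genes tested and 73.9% of the coding genes tested. The share of the members was thus near the background. Their median fold enrichment in replicate 1 was 16.1 (range 6.31 to 34.7), compared with 16.6 over all genes with a peak, and in replicate 2 the members' median was 6.31. Of the 62 summits, 53 lay within 150 bases of a start site and 43 upstream of it.

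In replicate 1 the highest fold enrichment was that of *Rpl23*, 34.7 at chr11:97781852-97782762 and a summit 55 bases upstream. *Rps16* followed at 32.1 (chr7:28350391-28351100), then *Rplp0* at 29.6 (chr5:115559173-115559804) and *Rps23* at 29.2 (chr13:90922701-90923538). *Rpl15* had a peak of 15.5 at chr14:18270964-18271505, with the summit 98 bases upstream, and *Rpsa* one of 22.5 at chr9:120127490-120128116. *Rpl39l* had none. With the mCherry-only control in place of IgG, 19 of 87 members had a peak, compared with 24% of all genes tested, among them *Rpl23*, *Rps16*, *Rplp0* and *Rps23* but neither *Rpl15* nor *Rpsa*.

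**Figure D5:**
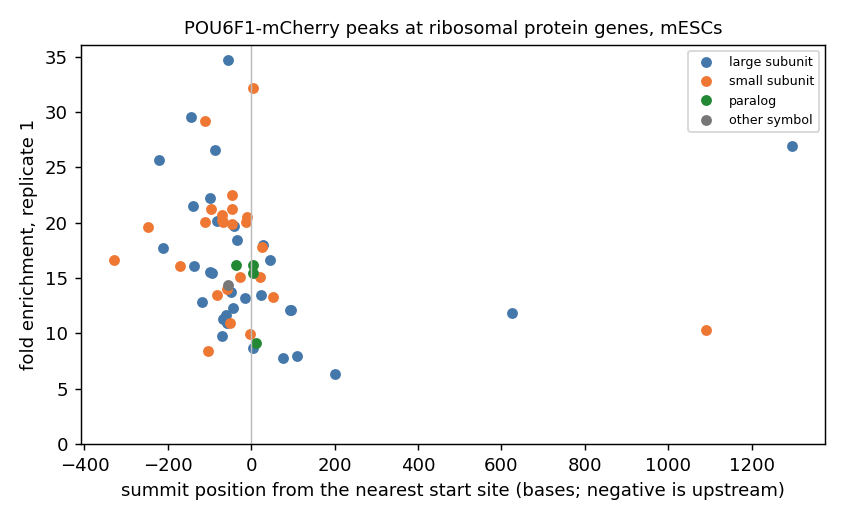
Position of the peak summit from the nearest start site of each of the 62 members with a consensus peak (x axis, bases, negative upstream) against its fold enrichment over the IgG control in replicate 1, as the authors' peak caller gave it (y axis), coloured by class. Of the summits, 53 lie within 150 bases of a start site, and the highest, *Rpl23* at 34.7, lies 55 bases upstream.

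Of the members with a peak, 35 of 62 fell from E2.5 to E2.75 in WT embryos, and of those without, 6 of 26, with medians of −1.03 and −0.98. The gap in calls thus came with nearly equal median fold changes. Of all genes tested, 4.59% were called lower. That share was not split by peak, so the gap cannot be read as particular to the members.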

How the data were processed

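RNA-seq libraries of 23 single mouse embryos and ChIP-seq peak lists of mESCs were used. Per the labels and methods, the authors used cutadapt 3.4 for trimming, STAR 2.7.8a for alignment to GRCm38 and HTSeq 0.11.4 to count reads per gene in its intersection-strict mode, without strand, and the deposited values are raw counts. Depth was 1690192 to 14015980 counts on genes per library. Summary lines and 92 ERCC spike-ins stayed out of library sizes and tests. Peaks were called by the authors with MACS2 2.2.7.1 in each replicate after alignment with Bowtie2 2.4.4, and the deposited lists give a score, a fold enrichment as a ratio, −log10 of p and q values and summit positions, with no read depth.

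Samples were grouped by genotype and stage from their labels. The test was that of edgeR 4.0.16 under R 4.3.3 (quasi-likelihood test, TMM normalization, filterByExpr) over all genes that passed the filter, with Benjamini-Hochberg adjustment. Calls required an adjusted p under 0.1. Genotypes were compared with the stages merged and at each stage, and stages within WT embryos. Of the members, 87 passed the filter in the combined fit, 88 in the WT embryos, 89 at E2.5, 87 at E2.75 and 90 in the 6-group fit. *Rps12-ps3*, *Rpl36-ps4*, *Rpl9-ps1*, *Rpl3l* and *Rpl36a-ps1* did not pass in the combined fit. The stages in het and null embryos and the WT interaction were added after the data were seen, as were the fit of 6 groups and the members with under 50% of words elsewhere. Nothing says that embryos of a group came from different litters, so p-values measure the spread between these embryos. The 38 pairs of embryos of the same group differed by more than counting noise (chi-square per gene 23.4 to 184), so no library looked deposited more than once. This does not test their independence.

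Alternatives were DESeq2 1.42.0, ERCC scaling, TMM without the members, no filter, stage as covariate, the replicate number as a block and leaving out each embryo. Levels between genes are CPM per kb of the shortest principal mRNA, whose 50-base words were searched in GRCm38 on both strands. A consensus peak overlaps by at least 1 bp in both replicates (bedtools 2.31.1). Genes were named by rule: in each comparison the members called past a log2 fold change of 1, then the 6 largest rises and 6 largest falls among those called or, where fewer were called, the 3 of lowest p in each direction, the 5 highest and 5 lowest members per kb, every member that is no canonical protein, *Rpl5*, *Rpl11*, *Rps6*, *Rplp0*, *Rpsa*, *Fau* and *Rack1*, and from each other list those called and at most 4 of largest change. Other names were chosen after their values were seen, and some genes under the rule are not reported here. The members and lists were chosen with earlier results of these data known. On simulated data (13272 genes), the WT stage fit called 7% of genes changed by a log2 fold change of 1 and 56% of those changed by 2. In the fit of null against het (13415 genes) these were 29% and 79%, and at E2.75 for null against WT (14442 genes) 6% and 64%. Each simulation changed 100 genes per size, drawn only from genes above a set mean CPM. The shares thus do not cover members of low level such as *Rpl36* and *Rpl28*. In the data of the WT stage fit, 609 genes were called lower and 424 higher, so the simulated shares need not hold there.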

Additional observations from a re-analysis of the deposited data

Results flagged for a closer look

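In 57 sets of values, each of 1 measure or gene in 1 group of at least 4 embryos, the highest or lowest value was tested for its gap to the rest. Of these, 13 stood apart, where chance alone gives about 1 in 20 for a single set. The sets reuse the same embryos and are not independent, so their number cannot be read against that rate. E2.75 Het replicate 2 held 3.86% of its gene counts on the members, compared with 2.31% to 2.68% in the other het embryos of its stage. Its 3009380 gene counts were the fewest of that group. In the same embryo *Rpl35* stood at 64.2 CPM (others 16.4 to 20.8), *Rps19* at 599 (375 to 422), *Rpl22l1* at 70.8 (18.3 to 22.9), *Rpl22* at 674 (238 to 311) and *Rpl39* at 718 (158 to 256).

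E2.5 WT replicate 5 was high for *Rps14* at 4718 CPM (others 1820 to 2812), *Rpl22l1* at 230 (44.4 to 67.0), *Rpl22* at 1270 (357 to 676) and *Rpl39* at 1573 (229 to 548). Without this embryo, 34 members in place of 41 were called lower at E2.75 in WT embryos, with a median of −0.85. Its *Dis3* stood at 40.2 CPM, below both het embryos of E2.5 at 58.2 and 59.2 CPM. Whether its label is right was not tested. E2.5 Null replicate 1 had 0.509 member counts per ERCC count (others 0.519 to 0.521), *Rps29* at 68.4 CPM (31.7 to 32.6) and *Rpl39* at 440 (629 to 662).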

How the results depend on the processing

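Counts of members called depended most on the scaling and on single embryos. With ERCC scaling, null against het gave 0 higher and 59 lower with the stages merged, 8 lower at E2.5, and 0 higher and 7 lower at E2.75. Of all genes, 39.8%, 12.1% and 16.6% were lower in these comparisons. Null against WT gave 1 higher (*Rpl15*, 0.85, adjusted p = 0.0960 by edgeR) and 1 lower with the stages merged and 0 higher at E2.75. Of all genes, 2.38% were higher and 4.36% lower with the stages merged, and 1.25% were higher at E2.75. Between stages it gave 2 higher and 0 lower in WT and 6 higher and 0 lower in null embryos. Under this scaling *Rpl15* was 0.24 in null against het, 0.59 at E2.75 and 1.15 in null against WT at E2.75, these 3 without a call. DESeq2 called 6 members higher in null against het, 2 at E2.5 and 2 at E2.75, and in null against WT 1 higher and 1 lower at E2.5 and 16 higher at E2.75. In null against het at E2.75 it called 6.75% of all genes higher. It called 1 lower in het, 14 lower (5.20% of all genes) and 1 higher in null embryos between stages, and 2 in the interaction of null and WT. Without a filter 2 were higher in null against WT (8.01% of all genes), 9 at E2.75 (1.68%) and 4 in the interaction (0.375% for null and WT). Between stages 2 were lower in null embryos (1.04%). A log2 fold change past 1 left 2 of the latter. Only the 2 genotypes in the fit gave 2 higher in null against het. Members with under 50% of words elsewhere gave 17 lower and 0 higher in WT.

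With 1 embryo left out at a time, the members higher in null against het numbered 1 to 3, at E2.75 0 to 2 with 0 to 1 lower, and in null against WT 0 to 1 at E2.5 and 0 to 5 at E2.75. The 3 came without E2.75 Null replicate 2, which also gave the 0 at E2.75 in both comparisons, as E2.75 WT replicate 1 did in the second. The 2 at E2.75 and the 5 came without E2.75 Het replicate 2, and the 1 at E2.5 without the library labelled E2.5 WT replicate 6. Between stages they numbered 1 to 43 lower and 0 to 1 higher in WT, 1 to 9 lower in null and 0 to 1 lower in het embryos. *Rpl15* ranged from 0.82 to 1.44 in null against het and from 1.07 to 1.70 in null against WT at E2.75, and *Rpsa* from 1.33 to 1.69 between stages. The canonical proteins alone took 3.25% of gene counts in E2.5 null and 2.02% in E2.75 WT embryos, in place of 3.61% and 2.22%. Of the 87 members tested, 19 had a peak against the mCherry-only control and 25 with at least 10 on the −log10 q scale in both replicates (29.1% of all genes tested). With a reciprocal overlap of 50% there were 28 (31.4%), and with 1 replicate alone 62 or 84 (66.7% and 82.9%). For each of these changes the cause was not tested.

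Same-numbered embryos of different groups did not deviate together (17 pairs, correlation −0.115 to 0.0826, 0 over 0.1), so the numbers do not pair them. With the replicate number as a block, 2 members were higher in null against WT and 0 at E2.75 in null against het or WT, where *Rpl15* was 1.14 (adjusted p = 0.250) and 1.37 (adjusted p = 0.117). It changed no other call.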
